A study of Mus musculus with 15 samples.

Results

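The genotype effect that 2 mouse fat depots share was estimated from RNA sequencing of all 15 of 15 libraries of the study, in 1 model with a term for the depot and a term for the genotype. The brown adipose tissue was newborn, of postnatal day 0.5, and gave 4 wild-type and 4 IL-33-/- libraries. The inguinal white adipose tissue was of postnatal day 24 and gave 4 wild-type and 3 IL-33-/- libraries, the latter numbered 2 to 4. Every group was labelled C57BL/6, and the sources used here give neither the substrain nor the deleted part of Il33. Tissue and age differ together, so that an effect seen in both depots was seen in 2 tissues of different ages. Whether each library is a separate animal is not said in the labels, so a p-value measures the spread between libraries, which could be technical. Total counts ran from 31661512 to 41926108 in brown wild type, 33782634 to 40802095 in the brown knockout group, 26059635 to 53923009 in inguinal wild type and 30835337 to 38765633 in inguinal knockout.

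IL-33 is a nuclear cytokine that is set free when stromal and barrier cells are damaged, and its receptor ST2, encoded by Il1rl1, sits on type 2 lymphoid cells, mast cells and regulatory T cells. Brown adipocytes, and the beige adipocytes that appear within white fat, burn fatty acids and release the energy as heat through the uncoupling protein UCP1. The title of the series places IL-33 and ST2 in the control of that uncoupled respiration. The depots also run a circadian clock, in which ARNTL with CLOCK or NPAS2 drives genes of the Period and Cryptochrome families and of the PAR bZIP factors, and those products feed back on it.

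The level of Il33 itself tests the genotype labels. Scaled to counts-per-million (CPM), inguinal Il33 was 3.45, 4.61, 3.82 and 3.55 in the wild-type libraries, in order of their numbers, and 0.346, 0.471 and 0.0791 in the knockout ones. In brown tissue Il33 was 1.82, 3.21, 2.01 and 1.73 CPM in wild type and 0.413, 1.75, 1.41 and 0.594 CPM in the knockout group. The inguinal groups were far apart, whereas in brown tissue knockout library 2 reached wild-type library 4. Il33 fell by 2.11 on the log2 scale as a common effect (SE 0.48, edgeR adjusted p = 0.0192), with -1.08 in brown and -3.73 in inguinal tissue. These depot effects differed (edgeR adjusted p = 0.0218), and the common call was lost without inguinal knockout library 2 (edgeR adjusted p = 0.0523). The brown values leaned toward the labels without settling them, so the brown group is called labelled knockout. Il1rl1 did not pass (0.21, SE 0.16, edgeR adjusted p = 0.445). Of 14 genes of IL-33 and ST2 signalling, Il33 fell and Nfkbia, an inhibitor of NF-kappa-B, rose through brown tissue alone. The call of Nfkbia was lost in 9 of the 15 fits that leave out 1 library (edgeR adjusted p = 0.0546 to 0.0868). Of 13 tested chromosomal neighbours of Il33, edgeR called 0, with 2 at an unadjusted p below 0.05, DESeq2 called 1 and limma-voom 0. Over all 16858 genes, 24.5% had an unadjusted edgeR p below 0.05, DESeq2 called 2094 and limma-voom 1828.

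Of 16858 genes tested, 1101 (6.53%) were called for the common effect at an edgeR adjusted p below 0.05, 695 higher (4.12%) and 406 lower (2.41%) in the libraries labelled knockout. At an unadjusted p below 0.05 there were 4138 (24.5%). A called gene was assigned to both depots where each depot's own effect had the same sign and an unadjusted p below 0.05, and otherwise to the depot that met this limit. By this rule 650 genes (3.86% of those tested) moved in both depots, 402 higher (2.38%) and 248 lower (1.47%). Another 217 genes (1.29%) were carried by inguinal tissue alone and 234 (1.39%) by brown tissue alone. No called gene passed this limit in both depots with opposite signs, which the common effect itself makes unlikely, since opposite effects cancel in it.

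The genes assigned to both depots had a median common log2 change of 0.52 where higher and -0.52 where lower, a 1.43-fold difference either way. Among those higher, the median depot effect was 0.45 in brown and 0.56 in inguinal tissue, and among those lower it was -0.45 and -0.56. The medians of the inguinal-alone genes were 0.22 in brown and 0.63 in inguinal tissue where higher, and -0.26 and -0.76 where lower. Brown-alone genes had medians of 0.73 in brown and 0.29 in inguinal tissue where higher, and -0.68 and -0.28 where lower. A test of the difference between depots passed in 16 of the 650 genes (2.46%), in 47 of the 217 (21.7%) and in 17 of the 234 (7.26%), against 9.0% of all genes. Most one-depot assignments therefore rest on a threshold met in 1 depot and missed in the other, not on a tested difference. These shares are in part fixed by how the classes were chosen. The common test counts a difference between depots as spread, and assignment to both depots asks for the same sign. The low share among the 650 therefore does not show that their effects are equal. At the edge of the rule lay Ppme1, Trarg1 and Rfxank inside and Synm, Grap and Gm12216 outside, and the calls nearest 0.05 were Plxna2, Tm4sf1 and Dusp27 inside and Tcfl5, Nol3 and Ptchd4 outside.

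**Figure D1:**
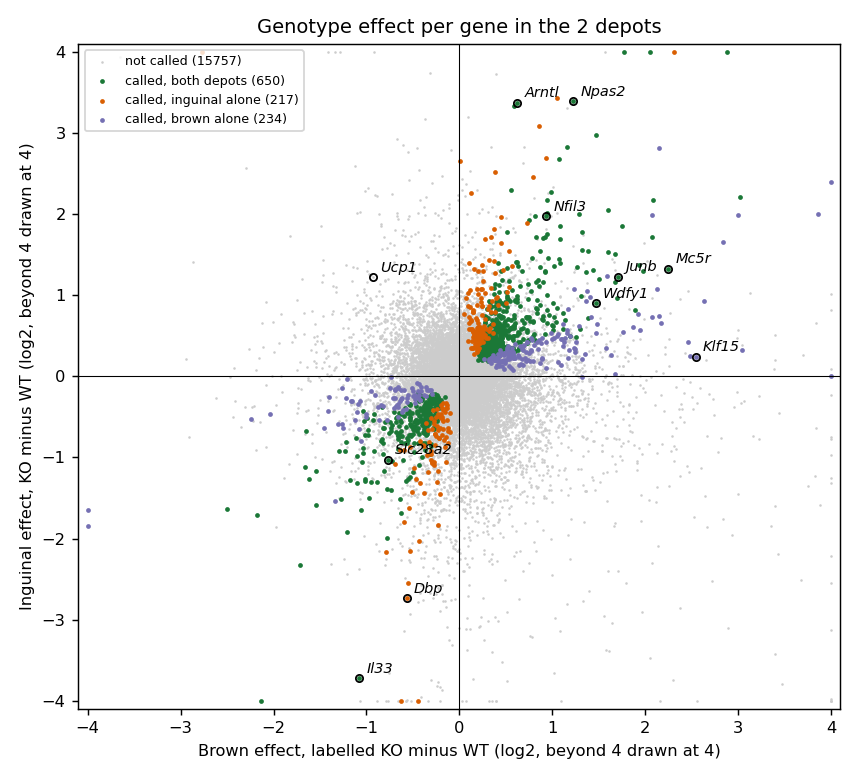
Genotype effect of each of 16858 genes in brown (x axis) and inguinal tissue (y axis), as log2 knockout over wild type. Green points are the 650 genes called in both depots, orange the 217 of inguinal tissue alone and purple the 234 of brown tissue alone. Grey genes fill all 4 quadrants, and 52 genes beyond 4 are drawn at the edge.

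Across all genes the effects in the 2 depots had a correlation near 0. Over 16858 genes, Pearson's r between the brown and inguinal log2 effects was -0.0131 and Spearman's rho 0.0395, and these genes share libraries and are not replicates. The signs were the same for 8768 genes (52.0%). Both depots passed an unadjusted p below 0.05 in the same direction for 708 genes (4.2%) and in opposite directions for 499 (2.96%). After adjustment of each depot's effect, 118 genes passed in both with the same sign and 81 with opposite signs. At the unadjusted limit limma-voom gave 1112 genes of the same sign and 1112 of opposite signs. Without brown wild-type library 2 edgeR gave 583 and 611, whereas the same sign led in every other fit that left out 1 library. In the scatter of depot effects the called genes therefore lie along 1 diagonal because the common test selects it, within a cloud that has no such direction.

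How many genes were called depended on single libraries. Without brown labelled knockout library 1 the count was 2610, and 1238 of these were assigned to both depots. That library lay beside the wild-type ones on the first principal component within depots (23.55% of variance), at -38.3, where brown wild type ran from -28.4 to -21.8 and the other labelled knockout libraries from 25.2 to 58.3. Its Il33, at 0.413 CPM, was the lowest of the 8 brown libraries. The count fell to 595 without inguinal knockout library 2, with 402 in both depots, to 597, 730 and 635 without inguinal wild-type library 2, 3 or 4, and to 725 without brown wild-type library 4. Of the 650 genes, 68.8% to 99.8% remained called in these 15 fits, and none changed direction. The signs of the 650 are in part fixed by how they were chosen.

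**Figure D2:**
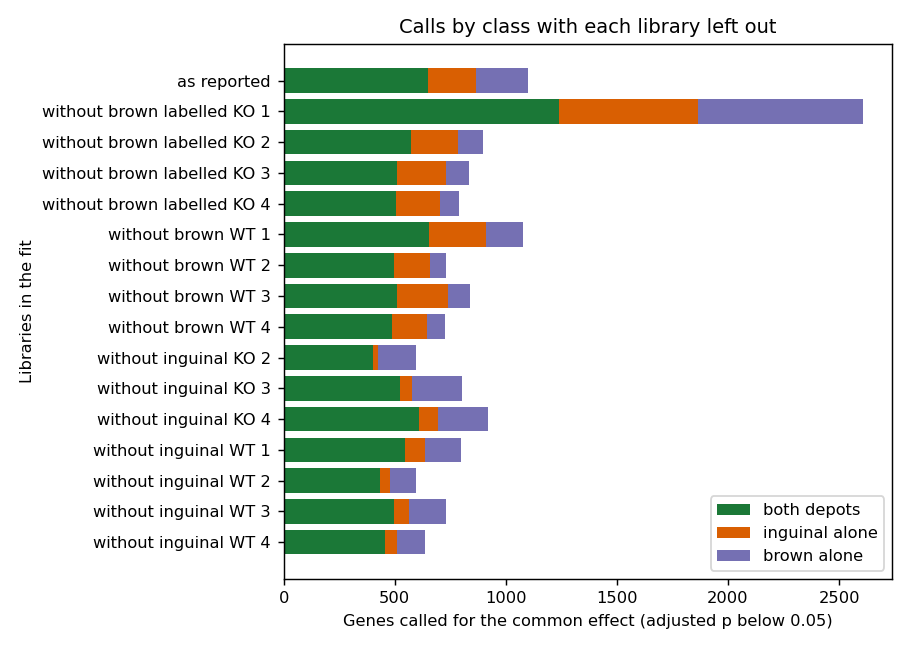
Number of genes called for the common effect with all 15 libraries (top bar) and with each library left out, as bars split by class. The bar without brown labelled knockout library 1 is the longest, at 2610, and the shortest is 595.

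Of 22 clock genes tested, 10 were called (45.5%, beside 6.53% of all genes), 5 higher and 5 lower. Arntl, Npas2, Nfil3 and Cry1 rose in both depots, and Per3 and Hlf fell in both. Csnk1e rose in brown tissue alone, while Dbp, Tef and Ciart fell in inguinal tissue alone. The median common log2 change of the list was 0.21, beside -0.00798 over all genes, and the depot effects differed for 8 of its 22 genes. With single libraries left out, 3 to 9 of the list were called higher and 2 to 6 lower. The most, 9 higher and 6 lower, came without brown labelled knockout library 1, where 15.5% of all genes were called.

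Arntl (ENSMUSG00000055116), the non-redundant activator of the clock, was at 11, 11.1, 12.2 and 13.5 CPM in brown wild type and at 17.7, 19.8, 16.4 and 19.8 CPM in brown labelled knockout libraries. Inguinal Arntl was 2.47, 2.94, 2.44 and 2.67 CPM in wild type and 31.7, 28.2 and 22.2 CPM in knockout. In each depot the libraries labelled knockout were all above wild type. Arntl rose by 1.88 as a common effect (SE 0.39, edgeR adjusted p = 0.0161), with 0.62 in brown and 3.38 in inguinal tissue, effects that differed by 2.75 (edgeR adjusted p = 1.56e-06). Its paralogous partner Npas2 was 5.91, 7.87, 11.8 and 8.52 CPM in brown wild type and 7.35, 26.7, 20.5 and 24.9 in labelled knockout. Inguinal Npas2 rose from 0.467, 0.490, 1.07 and 0.592 CPM in wild type to 7.57, 6.29 and 6.25 in knockout. Brown labelled knockout library 1 lay within the wild-type range and the inguinal groups did not overlap. Npas2 had a common change of 2.1 (SE 0.38, edgeR adjusted p = 0.00745), larger in inguinal tissue by 2.17 (edgeR adjusted p = 0.0185).

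Nfil3, a bZIP repressor that competes with the PAR bZIP factors for their sites, measured 20.01, 23.7, 24.0 and 49.1 CPM in brown wild type and 64.3, 61.2, 47.2 and 50.6 in labelled knockout. In inguinal tissue Nfil3 was 7.22, 6.83, 10.3 and 10.1 CPM in wild type and 37.9, 31.9 and 31.9 in knockout. Only brown wild-type library 4 reached the knockout values. Nfil3 rose by 1.41 (SE 0.22, edgeR adjusted p = 0.00338), and its depot effects of 0.93 and 1.97 did not pass the test of a difference (edgeR adjusted p = 0.0736). Cry1, a Cryptochrome repressor, rose by 0.47 (SE 0.12, edgeR adjusted p = 0.0349) with almost equal effects in brown (0.46) and inguinal tissue (0.47). Its call was lost in 11 of the 15 leave-one-out fits (edgeR adjusted p = 0.0552 to 0.0736).

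On the falling side, the Period gene Per3 was at 111, 88.4, 107 and 99.5 CPM in brown wild type and at 98.7, 50.0, 81.4 and 47.5 in labelled knockout. Inguinal Per3 went from 146, 158, 145 and 141 CPM to 59.0, 53.9 and 71.7. The inguinal groups were apart, and brown labelled knockout library 1 lay among the wild-type values. Per3 fell by 0.87 (SE 0.17, edgeR adjusted p = 0.00847). Hlf, a PAR bZIP activator, read 61.4, 36.4, 37.6 and 34.3 CPM in brown wild type against 35.7, 14.1, 21.1 and 11.5 in labelled knockout. In inguinal tissue Hlf was 43.2, 54.0, 39.7 and 39.0 CPM against 19.2, 24.1 and 20.4. Again brown labelled knockout library 1 alone overlapped wild type. Hlf fell by 1.05 (SE 0.21, edgeR adjusted p = 0.0115), by -1.04 in brown and -1.05 in inguinal tissue.

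Other genes of the clock were called through 1 depot or differed between the depots. Dbp had -0.57 in brown and -2.73 in inguinal tissue, and Tef -0.14 and -1.06, both with a difference between depots (edgeR adjusted p = 0.00999 and 0.00462). Per2 had opposite effects, 0.44 in brown and -1.26 in inguinal tissue, with no overlap between groups in either, and no common change (-0.31, edgeR adjusted p = 0.453). Bhlhe40, a transcriptional repressor of the clock, had a common value of 1.83 that did not pass (SE 0.54, edgeR adjusted p = 0.056). Its brown labelled knockout values were 166, 16.8, 10.5 and 11.2 CPM, so that library 1 alone carried the brown difference. The calls of Dbp, Tef, Ciart and Csnk1e were each lost without 1 or more single libraries. For Dbp these were any of the 3 inguinal knockout libraries (edgeR adjusted p = 0.0623 to 0.0813). Tef lost its call in 6 of the 15 fits (edgeR adjusted p = 0.0505 to 0.0823), Csnk1e in 8 (0.0501 to 0.0668) and Ciart in 10 (0.0502 to 0.0813). The sources used here do not give the time of day at which tissues were collected.

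**Figure D3:**
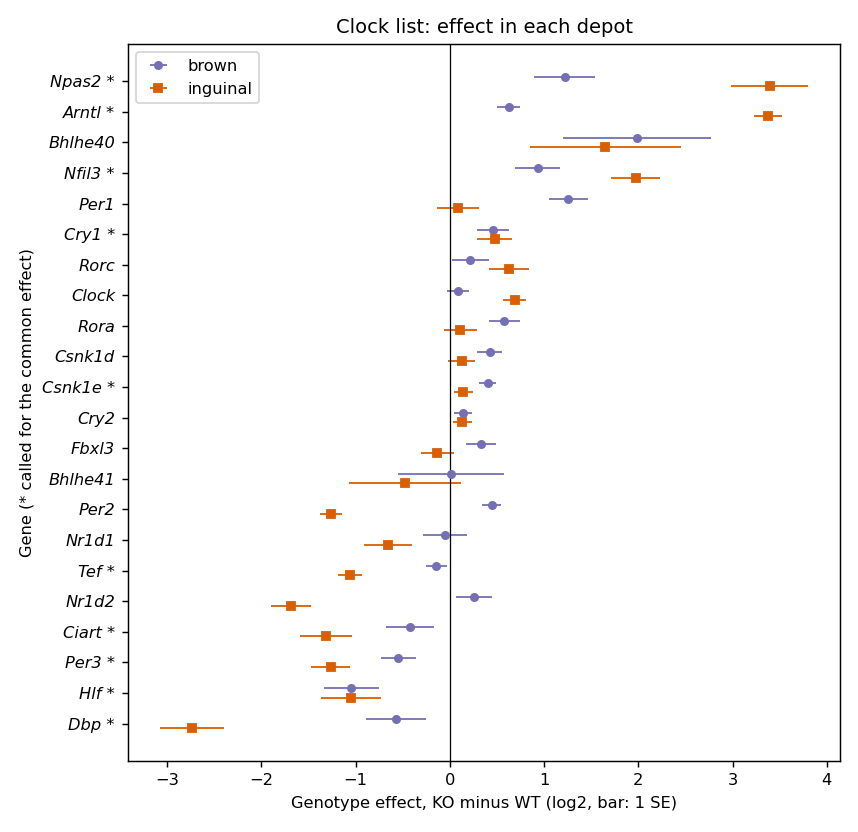
Log2 genotype effect of the 22 clock genes in brown (circles) and inguinal tissue (squares), with bars of 1 SE and a star at genes called for the common effect. Arntl, Npas2 and Nfil3 lie to the right of 0 in both depots and Per3 and Hlf to the left, whereas Per2 lies on opposite sides.

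Of the 4 clock genes that rose in both depots, the promoters of 3 are shown because they hold a motif read by clock proteins. The promoter of the fourth gene, Npas2, held none of the 4 motifs searched, and of the 2 Arntl promoters in the table the other held no AGGTCA. Each spans 250 bases before to 50 after the start of the gene, from RefSeq on GRCm38.p6, a later build than the one the counts were made on. Capitals mark AGGTCA, the half-site read by ROR and REV-ERB receptors, in Arntl (chr7:113207261-113207560, plus strand) and on the opposite strand as TGACCT in Nfil3 (chr13:52980990-52981289, minus strand). In Cry1 (chr10:85185005-85185304, minus strand) they mark CACGTG, the E-box read by ARNTL with CLOCK or NPAS2.
Arntl: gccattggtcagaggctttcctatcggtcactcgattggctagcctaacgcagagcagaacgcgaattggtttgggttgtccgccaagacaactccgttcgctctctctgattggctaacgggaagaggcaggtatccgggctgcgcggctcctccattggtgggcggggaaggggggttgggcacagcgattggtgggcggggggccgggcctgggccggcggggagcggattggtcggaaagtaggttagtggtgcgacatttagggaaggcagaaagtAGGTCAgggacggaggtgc
Nfil3: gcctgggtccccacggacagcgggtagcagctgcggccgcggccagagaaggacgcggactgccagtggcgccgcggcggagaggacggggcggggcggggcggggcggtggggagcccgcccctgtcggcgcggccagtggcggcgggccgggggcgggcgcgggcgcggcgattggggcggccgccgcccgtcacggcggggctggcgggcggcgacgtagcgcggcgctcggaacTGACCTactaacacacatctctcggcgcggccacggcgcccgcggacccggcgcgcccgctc
Cry1: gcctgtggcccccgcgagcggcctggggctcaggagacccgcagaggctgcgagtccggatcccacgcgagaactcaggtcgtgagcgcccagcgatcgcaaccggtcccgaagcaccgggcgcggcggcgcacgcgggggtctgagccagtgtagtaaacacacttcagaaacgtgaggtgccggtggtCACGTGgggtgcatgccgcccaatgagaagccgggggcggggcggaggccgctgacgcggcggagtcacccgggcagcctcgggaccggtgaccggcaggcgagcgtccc

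Both strands were searched for the E-box CACGTG, the AP-1 site TGANTCA, the box known as CCAAT and the half-site AGGTCA, the last of these added after the values were seen, and none of the 4 motifs contains another. Promoters were found for 17 of the 22 clock genes. CACGTG was present for 5 of the 17 genes, beside 7.15% of 32851 promoters of this length. AGGTCA was present for 5, beside 16.3%, and CCAAT for 13, beside 37.4%. TGANTCA was in none of the 17, beside 7.81% of all promoters. A gene with several starts counted where any of its promoters held the motif, and a match is a description of letters, not of binding.

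Immediate early genes, which are transcribed within minutes of a stimulus, gave 5 rises and no fall among 25 tested (20% called). Junb, Fosl2 and Ier2 rose in both depots and Zfp36 and Maff in brown tissue alone. The list median was 1.07 in brown and -0.22 in inguinal tissue, and the depots differed for 15 of the 25 genes, so that the genes that rose in both depots were 3 of 25. Leaving out single libraries gave 4 to 6 rises, and Maff lost its call without brown wild-type library 2, 3 or 4 (edgeR adjusted p = 0.0528 to 0.0558). Junb (ENSMUSG00000052837), an AP-1 subunit, stood at 2.28, 1.71, 1.92 and 2.47 CPM in brown wild type and at 4.43, 5.97, 8.34 and 8.74 in labelled knockout. Inguinal Junb was 3.35, 2.07, 2.52 and 1.97 CPM in wild type and 7.74, 4.37 and 5.30 in knockout. No library of one genotype reached the other in either depot. Junb rose by 1.49 (SE 0.19, edgeR adjusted p = 0.00137). Fosl2, another AP-1 subunit, rose by 1.37 (SE 0.24, edgeR adjusted p = 0.00707), from 42.3, 39.1, 57.3 and 50.3 CPM to 62.7, 232, 106 and 214 in brown tissue. Its inguinal values were 29.2, 33.1, 35.2 and 35.1 CPM in wild type and 69.3, 72.3 and 52.8 in knockout, again without overlap.

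Ppp1r15a, the stress-induced subunit that directs a phosphatase to eIF2 alpha, was 14.7, 13.8, 18.8 and 21.3 CPM in brown wild type and 32.6, 85.4, 54.2 and 82.1 in labelled knockout. Inguinal Ppp1r15a was 10.7, 12.2, 16.2 and 13.7 CPM in wild type and 28.5, 21.4 and 19.7 in knockout. The groups were separate in both tissues, and Ppp1r15a rose by 1.41 (SE 0.24, edgeR adjusted p = 0.0052). Trib3, a pseudokinase of the same stress response, rose by 1.49 (SE 0.23, edgeR adjusted p = 0.00301), more in inguinal (2.17) than in brown tissue (0.95; edgeR adjusted p of the difference 0.0323). These were the only 2 of 25 genes of the unfolded protein and integrated stress response called (8.0%), and the list median was 0.045.

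In the glucocorticoid and fasting list 6 of 26 genes rose and none fell (23.1% called), but the depots differed for 16 of them. The list median was 1.46 in brown and -0.076 in inguinal tissue, and leaving out single libraries gave 3 to 10 rises. The 10 came without brown labelled knockout library 1, where 15.5% of all genes were called. Zbtb16 and Cdkn1a rose in both depots. Zbtb16, a zinc-finger transcription factor induced by glucocorticoids, was 65.3, 104, 181 and 79.5 CPM in brown wild type and 172, 409, 392 and 404 in labelled knockout. In inguinal tissue Zbtb16 was 11.7, 17.9, 33.0 and 40.7 CPM against 58.9, 50.5 and 63.7. Labelled knockout library 1 fell below the highest brown wild-type library and the inguinal groups were apart, and the gene rose by 1.44 (SE 0.30, edgeR adjusted p = 0.0152). Cdkn1a, the cell-cycle inhibitor p21, also rose by 1.44 (SE 0.22, edgeR adjusted p = 0.00351), by 1.08 in brown and 1.85 in inguinal tissue.

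Klf15, Klf9, Lpin1 and Nfkbia of the same list were assigned to brown tissue alone. Klf15, a transcription factor of fasting metabolism, rose in the brown libraries from 17.4, 20.3, 15.1 and 12.1 CPM to 35.3, 115, 87.3 and 140. Its inguinal values were 76.3, 78.2, 84.5 and 79.7 CPM in wild type and 97.4, 84.1 and 101 in knockout, close together. The inguinal libraries fitted on their own gave a small rise of 0.25 that was called (edgeR adjusted p = 0.0432). The depot effects of 2.54 and 0.24 differed (edgeR adjusted p = 0.00733), and the common change of 1.51 (SE 0.40, edgeR adjusted p = 0.04) lost its call in 10 of the 15 leave-one-out fits (edgeR adjusted p = 0.0508 to 0.0837). Klf9, a related factor, lost its call in 6 of these fits (edgeR adjusted p = 0.0521 to 0.0588). Lpin1, a phosphatidate phosphatase and coactivator, had 1.86 in brown and 0.61 in inguinal tissue. That difference did not pass (edgeR adjusted p = 0.0682), and the groups did not overlap in either depot.

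The 15 largest rises among genes whose groups were separate in both depots included Arntl, Mc5r, Gpnmb, Junb, Dusp14, Ppp1r15a, Fosl2, Wdfy1, Wnt11, Lcn2, Nkiras2, Arid5b, Avpr1a and Zfp36l1. They were taken from 127 eligible genes and ran from 1.88 down to 0.94. Groups without overlap in both depots and in 1 direction were seen for 339 of 16858 genes (2.01%), 170 higher (1.01%) and 169 lower (1.0%), and in opposite directions for 217 (1.29%). Of the 650 genes assigned to both depots, 250 had such groups (1.48% of those tested). In brown tissue alone the groups were apart for 1582 genes (9.38%), and in inguinal tissue for 5932 (35.2%). All 15 of the largest rises kept their call with each library left out in turn. The rule asked for called genes with separate groups and large effects, so this is in part fixed by the choice. With the replicate number as a block, Arntl and Fosl2 lost theirs (edgeR adjusted p = 0.129 and 0.0612).

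Mc5r (ENSMUSG00000007480), a melanocortin receptor, was at 1.11, 1.44, 0.487 and 1.19 CPM in brown wild type and at 1.98, 6.41, 4.60 and 7.13 in labelled knockout. Inguinal Mc5r was 2.1, 1.84, 1.87 and 3.16 CPM in wild type and 5.57, 5.55 and 5.94 in knockout. Mc5r rose by 1.81 (SE 0.28, edgeR adjusted p = 0.00303). The vasopressin receptor Avpr1a rose by 0.97 (SE 0.13, edgeR adjusted p = 0.00175), from 6.42 ± 0.89 to 13.9 ± 1.90 CPM in brown tissue (SD, n = 4 each) and from 1.66 ± 0.40 (n = 4) to 2.85 ± 0.20 CPM (n = 3) in inguinal tissue. Wnt11, a secreted ligand of non-canonical Wnt signalling, rose by 1.09 (SE 0.18, edgeR adjusted p = 0.00373). Lcn2, an iron-binding secreted lipocalin of inflamed tissue and fat, rose by 1.08 (SE 0.17, edgeR adjusted p = 0.00301). Gpnmb, a transmembrane glycoprotein of lipid-laden macrophages, and Dusp14, a phosphatase of MAP kinases, rose by 1.64 and 1.44, from wild-type means of at most 1.58 CPM.

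Arid5b, Zfp36l1 and Nkiras2 were also among the rises. Arid5b, a chromatin factor of adipocyte differentiation, went from 29.5 ± 4.27 to 72.6 ± 26.1 CPM in brown tissue and from 16.8 ± 2.26 to 25.1 ± 2.41 CPM in inguinal tissue. Zfp36l1, which promotes decay of AU-rich mRNAs, went from 40.8 ± 11.7 to 89.9 ± 10.9 CPM and from 22.3 ± 1.88 to 36.0 ± 6.67 CPM. Nkiras2, an inhibitor of NF-kappa-B signalling, rose by 1.02 (SE 0.13, edgeR adjusted p = 0.00137).

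Wdfy1 (ENSMUSG00000073643), an endosomal protein gene whose expression is known to differ between C57BL/6 substrains, measured 31.1, 32.4, 27.0 and 31.4 CPM in brown wild type and 92.1, 70.6, 110 and 64.5 in labelled knockout. Inguinal Wdfy1 was 23.6, 24.6, 24.7 and 24.1 CPM in wild type and 35.4, 40.7 and 60.1 in knockout. Wild-type libraries were tight in both depots and the labelled knockout libraries all above them. Wdfy1 rose by 1.21 (SE 0.14, edgeR adjusted p = 0.00085), by 1.47 in brown and 0.91 in inguinal tissue. Of the other substrain genes tested, Ide, the insulin-degrading enzyme, was called through inguinal tissue alone. Its brown wild-type libraries were split, at 95.2, 86.2, 258 and 184 CPM, whereas the labelled knockout ones were at 184, 200, 195 and 176. Inguinal Ide was 83.9 to 86.0 CPM in the 4 wild-type and 293, 300 and 233 in the 3 knockout libraries. The common change of Ide, 0.94 (SE 0.27, edgeR adjusted p = 0.0485), lost its call in 12 of the 15 leave-one-out fits (edgeR adjusted p = 0.0532 to 0.0986). Nnt, the transhydrogenase gene disrupted in one substrain, did not pass (0.07, SE 0.14, edgeR adjusted p = 0.793). The part of substrain in the other shared changes was not tested.

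**Figure D4:**
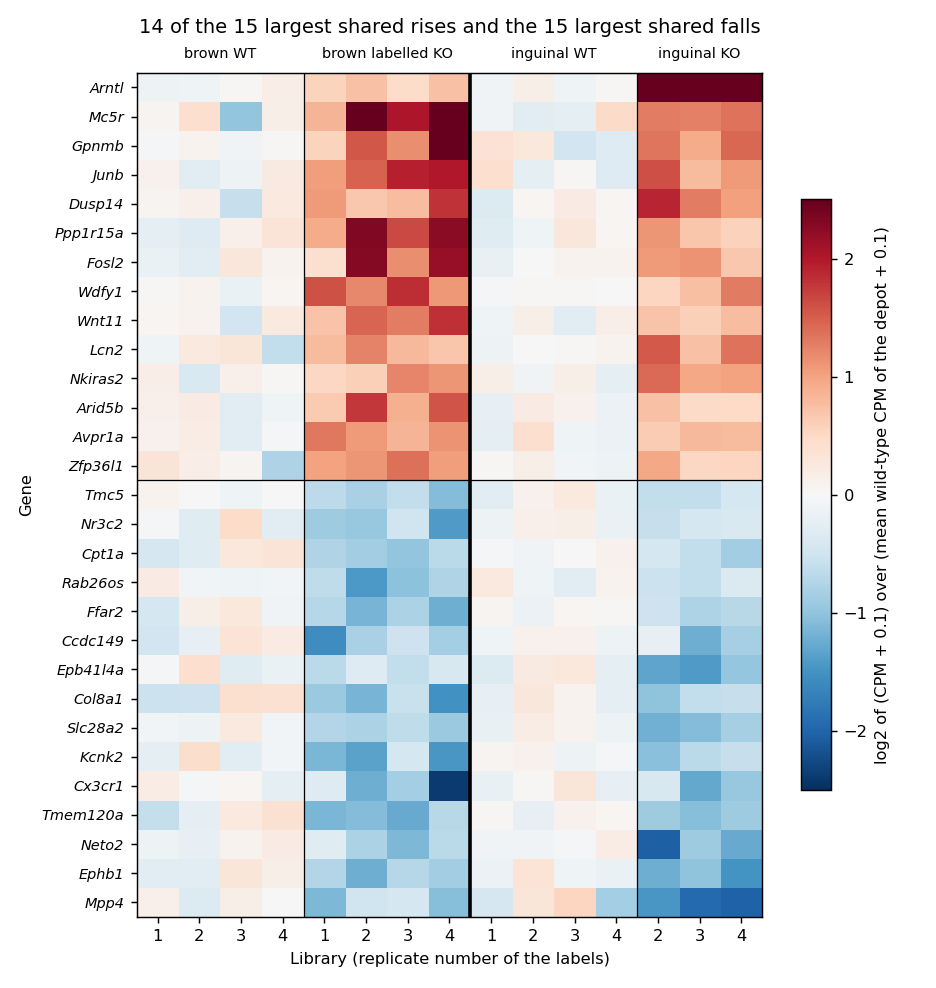
Heat map of 14 of the 15 largest shared rises (upper rows) and the 15 largest shared falls (lower rows) over all 15 libraries, each as log2 of CPM plus 0.1 over the wild-type mean of its depot plus 0.1, with colours ending at 2.5. Libraries labelled knockout are red in the upper and blue in the lower rows in both depots, as the rule of no overlap requires. Colours are paler in brown labelled knockout library 1 for several rises, such as Mc5r, Fosl2 and Arid5b.

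The 15 largest falls by the same rule were Mpp4, Ephb1, Neto2, Tmem120a, Cx3cr1, Kcnk2, Slc28a2, Col8a1, Epb41l4a, Ccdc149, Ffar2, Rab26os, Cpt1a, Nr3c2 and Tmc5, from 85 eligible genes and from -1.26 to -0.69. Slc28a2 (ENSMUSG00000027219), a sodium-coupled nucleoside transporter, had the smallest p of the common test. It stood at 28.8, 27.7, 36.2 and 29.0 CPM in brown wild type and at 18.4, 17.4, 19.6 and 15.9 in labelled knockout. Inguinal Slc28a2 was 37.9, 48.5, 45.6 and 39.4 CPM in wild type and 18.6, 20.1 and 24.2 in knockout. All libraries labelled knockout were below all wild-type ones of their depot, and the gene fell by 0.89 (SE 0.09, edgeR adjusted p = 0.000625).

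Tmem120a, a nuclear-envelope and membrane protein gene of fat-cell differentiation, was 113, 144, 203 and 223 CPM in brown wild type and 76.8, 80.3, 70.8 and 106 in labelled knockout. In inguinal tissue Tmem120a was 348, 298, 368 and 355 CPM against 185, 163 and 185. It fell by 0.99 (SE 0.13, edgeR adjusted p = 0.00137), almost equally in brown (-1.03) and inguinal tissue (-0.95). Cpt1a, which admits long-chain fatty acids to mitochondria, was 48.6, 53.2, 78.8 and 81.5 CPM in brown wild type and 38.7, 35.6, 33.1 and 41.0 in labelled knockout. Inguinal Cpt1a was 43.8, 43.0, 45.9 and 49.1 CPM against 33.5, 29.6 and 24.7. The groups were apart in both depots and Cpt1a fell by 0.74 (SE 0.11, edgeR adjusted p = 0.00301).

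Further falls were those of Ffar2, Nr3c2, Kcnk2, Ephb1 and Cx3cr1. Ffar2, a receptor for short-chain fatty acids, fell by 0.81 (SE 0.12, edgeR adjusted p = 0.0022), from 3.81 ± 0.80 to 1.92 ± 0.35 CPM in brown and from 52.8 ± 3.66 to 33.4 ± 2.96 CPM in inguinal tissue. Nr3c2, the mineralocorticoid receptor, fell by 0.71 (SE 0.15, edgeR adjusted p = 0.0165). Kcnk2, a mechanosensitive potassium channel, fell by 0.92 (SE 0.16, edgeR adjusted p = 0.00569). The receptor tyrosine kinase Ephb1 fell by 1.11 (SE 0.18, edgeR adjusted p = 0.00331). Cx3cr1, the fractalkine receptor of monocytes and macrophages, fell by 0.97 (SE 0.24, edgeR adjusted p = 0.0246), a call lost without inguinal knockout library 3 (edgeR adjusted p = 0.053). Ccdc149 lost its call without any of brown wild-type library 4, inguinal wild-type library 2 and inguinal knockout library 3 (edgeR adjusted p = 0.0502 to 0.0568). With the replicate number as a block, Mpp4, Neto2, Cx3cr1, Kcnk2, Col8a1, Epb41l4a, Ccdc149 and Rab26os lost theirs (edgeR adjusted p = 0.0572 to 0.0834). Rab26os overlaps or lies antisense to another gene by its name, and since the strand setting of the counting is not given its fall of 0.76 is uncertain.

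Genes of thermogenesis gave 3 rises and no fall among 29 tested (10.3% called, beside 6.53% of all genes), and all 3 were in both depots. The list median was 0.24. Leaving out single libraries gave 2 to 6 rises, the 6 without brown labelled knockout library 1, where 15.5% of all genes were called. Pank1, which starts coenzyme A synthesis, rose by 0.88 (SE 0.19, edgeR adjusted p = 0.0152), Zfp516, a cold-induced activator of Ucp1, by 0.54 (SE 0.12, edgeR adjusted p = 0.0174) and Cox8b, a subunit of cytochrome oxidase in brown fat, by 0.42 (SE 0.11, edgeR adjusted p = 0.0281). Cox8b lost its call without any of 5 libraries: brown labelled knockout 4, brown wild type 4, inguinal knockout 2 and inguinal wild type 1 and 2 (edgeR adjusted p = 0.0503 to 0.0523). Ucp1 itself had no common effect (0.09, SE 0.38, edgeR adjusted p = 0.914). It was 2481, 3247, 6382 and 6779 CPM in brown wild type and 1558, 3234, 1870 and 3236 in labelled knockout, but 602, 928, 1050 and 701 in inguinal wild type and 2098, 2017 and 1621 in knockout. The brown groups overlapped, the inguinal groups did not, and the effects of -0.93 and 1.22 differed by 2.15 (edgeR adjusted p = 0.0147). Of 10 markers of brown or of white adipocytes, Ucp1 among them, edgeR called 0, with 4 at an unadjusted p below 0.05, DESeq2 called 0 and limma-voom 1. Of all 16858 genes 24.5% had such a p, and DESeq2 called 2094 and limma-voom 1828. The summed level of the 10 markers, which includes the Ucp1 values above, was 14870 to 19740 CPM in brown wild type and 12060 to 16430 in labelled knockout. In inguinal wild type and knockout it was 18090 to 20370 and 19100 to 19770 CPM.

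In lipogenesis and triglyceride synthesis 4 of 24 genes rose (16.7% called) and none fell, with a median of 0.21. Acacb, the acetyl-CoA carboxylase whose product inhibits CPT1, was 964, 769, 636 and 647 CPM in brown wild type and 942, 1484, 1509 and 1383 in labelled knockout. Inguinal Acacb was 1240, 945, 929 and 742 CPM against 1597, 1353 and 981, so that the groups overlapped in both depots. It rose by 0.65 (SE 0.15, edgeR adjusted p = 0.0199). Acly, which makes cytosolic acetyl-CoA, rose by 0.83 (SE 0.20, edgeR adjusted p = 0.0255), and Fasn, fatty acid synthase, by 0.89 (SE 0.25, edgeR adjusted p = 0.0478). Acly lost its call without inguinal knockout library 2 or inguinal wild-type library 2 or 4 (edgeR adjusted p = 0.0508 to 0.0571), and Fasn in 10 of the 15 fits (edgeR adjusted p = 0.0588 to 0.106).

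Of 18 genes of lipolysis and lipid storage, 1 rose and 2 fell (16.7% called, median -0.093). Pnpla2, adipose triglyceride lipase, rose by 0.62 (SE 0.11, edgeR adjusted p = 0.00714). Its brown values were 2479, 2134, 1989 and 2171 CPM in wild type and 2229, 3618, 3710 and 3331 in labelled knockout, and its inguinal values 2098, 1842, 1992 and 1596 against 3664, 2817 and 2640. Brown labelled knockout library 1 was again within the wild-type range. Aqp7, the glycerol channel, fell by 0.34 (SE 0.08, edgeR adjusted p = 0.0242), a call lost without inguinal knockout library 4 (edgeR adjusted p = 0.0573). In fatty acid oxidation Acads rose in both depots, Acadvl in inguinal tissue alone and Cpt1a fell (3 of 27, 11.1%, median 0.19), and Acadvl lost its call in 10 of the 15 fits (edgeR adjusted p = 0.0523 to 0.0933). In cholesterol synthesis 3 of 22 rose (13.6%, median 0.29), of which Lss, lanosterol synthase, did so in both depots, by 0.64 (SE 0.10, edgeR adjusted p = 0.00347). Oxidative phosphorylation had 3 rises and 2 falls among 39 genes (12.8%, median 0.089), and only the fall of Uqcrh was in both depots, a call lost without inguinal knockout library 4 (edgeR adjusted p = 0.0609). Among the other calls, Plin4 of lipid storage lost its call in 10 of the 15 fits, Insig1 of cholesterol synthesis in 11 and Ndufv1 of oxidative phosphorylation in 7. With single libraries left out, the rises numbered 0 to 5 in oxidative phosphorylation, 1 to 7 in fatty acid oxidation, 2 to 5 in cholesterol synthesis and 2 to 6 in lipogenesis. Each of these highest counts was reached without brown labelled knockout library 1, where 15.5% of all genes were called.

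In insulin and PI3-kinase signalling, 1 of 21 genes rose and 3 fell (19.0% called, median 0.0049). Igfbp3, a binding protein that holds IGFs in the circulation, was 156, 201, 147 and 181 CPM in brown wild type and 187, 380, 286 and 377 in labelled knockout. Inguinal Igfbp3 went from 29.1, 36.4, 23.1 and 36.3 CPM to 71.9, 68.8 and 72.9. Only brown labelled knockout library 1 overlapped wild type, and Igfbp3 rose by 1.0 (SE 0.15, edgeR adjusted p = 0.00244). Igf1, the growth factor itself, fell by 0.67 (SE 0.13, edgeR adjusted p = 0.011), from 123, 164, 100 and 122 CPM to 119, 95.4, 83.8 and 87.9 in brown tissue. Its inguinal values were 600, 597, 520 and 541 CPM in wild type and 224, 324 and 301 in knockout, with no overlap there and some in brown tissue.

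Endothelial markers gave 5 falls and no rise among 16 tested (31.2% called), all 5 in both depots, and a list median of -0.23. They were Kdr and Tek, receptors for VEGF and angiopoietins, Emcn, a surface sialomucin, Egfl7, a secreted vessel factor, and Sox18, a vascular transcription factor. Tek was 90.1, 96.7, 91.5 and 93.3 CPM in brown wild type and 84.8, 78.0, 76.8 and 67.0 in labelled knockout. Inguinal Tek was 60.4, 78.3, 69.7 and 56.8 CPM against 47.3, 52.2 and 49.5. The groups were apart in both depots, but by little, and Tek fell by 0.34 (SE 0.08, edgeR adjusted p = 0.0183). Sox18 fell by 0.45 (SE 0.10, edgeR adjusted p = 0.0167) and Egfl7 by 0.36 (SE 0.08, edgeR adjusted p = 0.0165). Emcn lost its call without inguinal knockout library 3 or 4 (edgeR adjusted p = 0.0578 and 0.0618) and Kdr in 12 of the 15 fits (edgeR adjusted p = 0.053 to 0.0779). With the replicate number as a block all 5 lost their call, Egfl7, Sox18 and Tek at an edgeR adjusted p of 0.0923 to 0.109. Summed over the list, levels were 1839 to 2172 CPM in brown wild type and 1787 to 1936 in labelled knockout, 1546 to 1827 in inguinal wild type and 1328 to 1487 in knockout. With single libraries left out, 3 to 9 endothelial markers were called lower and at most 1 higher. The depots differed for 3 of the 16. In bulk tissue, fewer cells of a type and less of its RNA per cell cannot be told apart.

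Markers of other cell types are given by their summed levels. Skeletal muscle markers had a median common effect of -0.95, with medians of -0.16 in brown and -2.30 in inguinal tissue, and the depots differed for 15 of 23. Of these 23 edgeR called 0, with 15 at an unadjusted p below 0.05, DESeq2 called 9 and limma-voom 5. For this and the lists below, 24.5% of all 16858 genes had an unadjusted edgeR p below 0.05, DESeq2 called 2094 and limma-voom 1828. Without brown labelled knockout library 1 edgeR called 7 of the muscle markers lower, in a fit that called 15.5% of all genes. Their summed level was 266 to 617 CPM in inguinal wild type and 121 to 134 in knockout, and 4401 to 7519 and 4012 to 7357 in brown tissue. Summed B-cell markers were 134 to 197 CPM in inguinal wild type and 104 to 117 in knockout, and 13.99 to 16.8 and 9.52 to 15.1 in brown tissue. The list median was -0.60 in brown and -0.90 in inguinal tissue. Bank1, a B-cell scaffold protein gene, was the 1 of 14 called (7.14%, beside 6.53% of all genes). Its common change was -0.78 (SE 0.18, edgeR adjusted p = 0.0188), with -1.02 in brown and -0.55 in inguinal tissue and no overlap in either. In the fit without brown labelled knockout library 1, where 15.5% of all genes were called, 4 of the 14 were called lower. Mast cell and neutrophil markers summed to 59.7 to 66.6 CPM in inguinal wild type and 110 to 127 in knockout, with Cpa3 and Tpsb2, genes of mast cell proteases, called through inguinal tissue alone. Those calls were lost in 12 and 9 of the 15 fits (edgeR adjusted p = 0.0503 to 0.0883 and 0.053 to 0.0797). Schwann and nerve markers summed to 1063 to 1285 CPM in inguinal wild type and 740 to 886 in knockout, and to 123 to 181 and 143 to 198 in brown tissue. Of 10 tested, Mbp, a myelin protein gene, fell in both depots by 0.34 (SE 0.08, edgeR adjusted p = 0.0242), a call lost without inguinal knockout library 2 or 3 (edgeR adjusted p = 0.0505 to 0.0525). S100b, a calcium-binding protein of Schwann cells and fat, was higher through inguinal tissue alone, with knockout libraries at 71.7 ± 10.7 CPM (SD, n = 3) beside 27.1 ± 2.62 CPM (n = 4) in wild type, and its common call was lost in 11 of the 15 fits (edgeR adjusted p = 0.0521 to 0.0986). Epithelial markers stood at 8.28 to 25.1 CPM in 14 libraries and at 254 CPM in brown labelled knockout library 4, with Csn2 at 0 everywhere. edgeR called 0 of 15 T-cell, 0 of 10 erythroid, 0 of 9 epithelial and 0 of 7 type 2 lymphoid and eosinophil markers, with 1, 0, 0 and 1 at an unadjusted p below 0.05. DESeq2 called 0, 0, 1 and 0 of them, and limma-voom 0 in each list. The part of these cell types in the shared changes was not tested.

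Of 13 progenitor markers, Dlk1, a surface protein of preadipocytes, was the 1 called (7.69%, beside 6.53% of all genes). Its common change was 0.85 (SE 0.19, edgeR adjusted p = 0.0183), and it was assigned to both depots. The brown effect of 0.41 barely met the limit (edgeR unadjusted p = 0.046), with overlapping groups. The inguinal effect was 1.40, and the depots differed (edgeR adjusted p = 0.0446). Chil3 of 17 macrophage markers (5.88%), Iigp1 of 27 interferon-stimulated genes (3.7%) and Agt of 12 white adipocyte and adipokine genes (8.33%) rose through inguinal tissue alone. Agt and Iigp1 lost their calls in 12 and 11 of the 15 fits (edgeR adjusted p = 0.0519 to 0.0883 and 0.0601 to 0.0956). Of 27 cell cycle genes edgeR called 0, with 4 at an unadjusted p below 0.05, DESeq2 called 2 and limma-voom 4. Of 18 heat shock and chaperone genes edgeR called 0, with 3 at an unadjusted p below 0.05, DESeq2 called 1 and limma-voom 2. Beside these 2 lists, 24.5% of all 16858 genes had such a p, and DESeq2 called 2094 and limma-voom 1828.

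**Figure D5:**
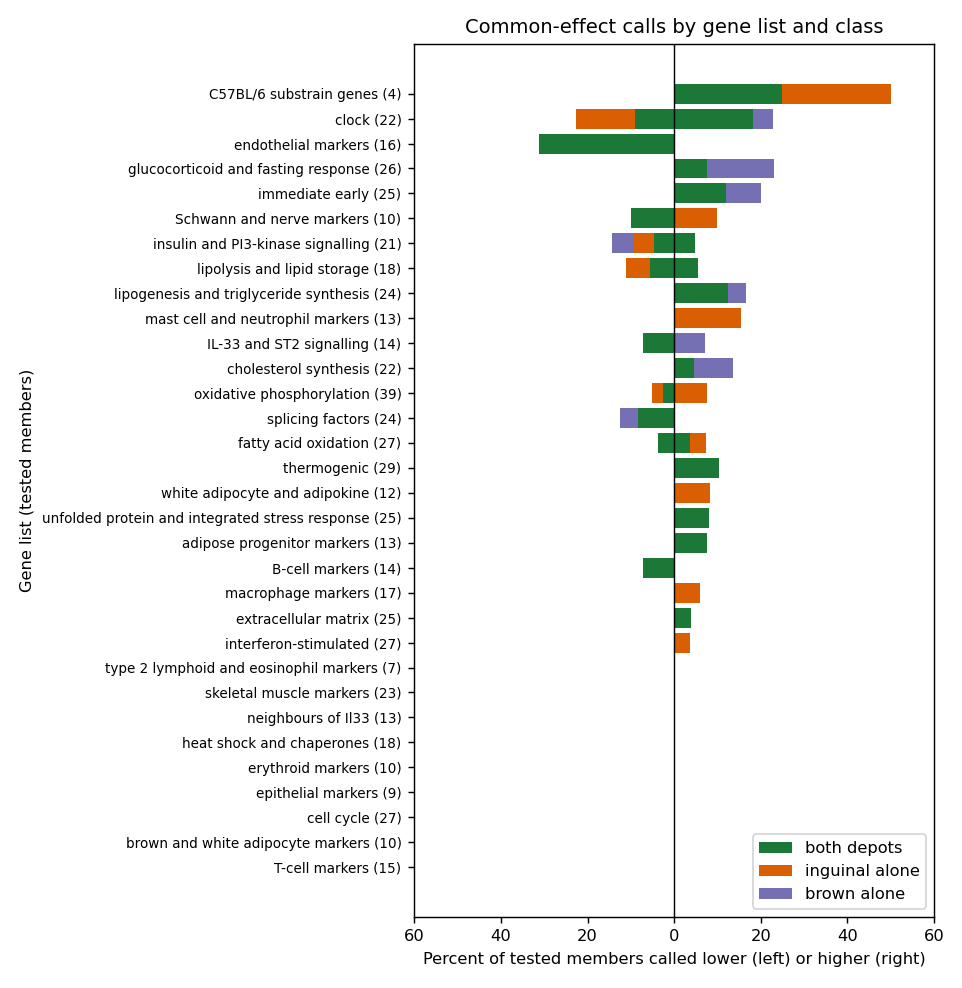
Percent of tested members called lower (bars to the left) and higher (to the right) for the 32 gene lists, coloured by class as both depots, inguinal alone or brown alone. The clock list extends to both sides, the endothelial list only to the left, and the muscle list has no bar.

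Genes called for the common effect through a single depot were led, by smallest p, by Azgp1, Dusp15, Aldh1b1, Eda and Hsd11b1 for inguinal tissue. Hsd11b1, which regenerates active glucocorticoid, was 48.8, 52.1, 46.2 and 41.9 CPM in inguinal wild type and 230, 213 and 110 in knockout. In brown tissue Hsd11b1 was 7.86, 7.48, 6.74 and 6.30 CPM against 6.88, 11.03, 13.2 and 7.58. The inguinal groups were apart and the brown ones overlapped, and the effects of 1.96 and 0.45 differed (edgeR adjusted p = 0.0107). Eda, the ectodysplasin ligand, also differed between depots, with 1.18 in inguinal and 0.25 in brown tissue (edgeR adjusted p = 0.00643). For Dusp15 and Aldh1b1 the difference did not pass (edgeR adjusted p = 0.687 and 0.0717). Azgp1 was at 2 and 4 counts in all over the brown groups, so that brown tissue bears little on it.

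For brown tissue the 5 leading genes included Sh3bp4, Lpin1, Atg9a and Ankrd16, and the difference between depots passed for none of these 4 (edgeR adjusted p = 0.0682 to 0.176). Atg9a, a lipid scramblase of autophagosome formation, was 53.9, 48.1, 46.1 and 46.3 CPM in brown wild type and 57.5, 105, 74.9 and 95.1 in labelled knockout. Inguinal Atg9a was 52.5, 51.7, 52.3 and 45.7 CPM against 69.6, 56.8 and 61.4. The groups were separate in both depots although only brown tissue met the limit, and Atg9a rose by 0.56 (SE 0.12, edgeR adjusted p = 0.0152).

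With each depot fitted on its own, 41 of 15796 genes (0.26%) were called in brown and 4498 of 15710 (28.6%) in inguinal tissue. Both fits called 11 genes in the same direction, 26.8% of the brown and 0.245% of the inguinal calls: Klf15, Ppp1r15a, Wdfy1, B430010I23Rik, Junb, Avpr1a, Snn, Ppard, Rhbdf2, Slc2a1 and Slc28a2. Another 8 were called in opposite directions. Ppard, a nuclear receptor for fatty acids, was 24.5 ± 3.62 and 41.4 ± 1.20 CPM in brown wild type and labelled knockout (SD, n = 4 each) and 26.1 ± 2.99 (n = 4) and 42.0 ± 8.86 CPM (n = 3) in inguinal tissue. It rose by 0.73 as a common effect (SE 0.09, edgeR adjusted p = 0.00137).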

How the data were processed

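Messenger RNA was sequenced from 15 adipose libraries, prepared with a stranded Illumina TruSeq kit per the labels' protocols. The authors deposited a table of unnormalized counts for each gene and library. Per the submitters' processing notes, mm9 was the build, and the tools were featureCounts and Subread, edgeR, and TopHat2 (version 2.1.0). The sources used here give no annotation release or strand setting, so reads of overlapping genes are uncertain.

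Of 37991 gene identifiers, 32919 were matched to a symbol through the reference tables and 26485 had at least 1 count. The model was fitted with edgeR 4.0.16 under R 4.3.3. A minimum count of 10 in filterByExpr set which genes were tested, TMM scaled the libraries, and depot plus genotype was tested with the robust quasi-likelihood F-test (glmQLFit, glmQLFTest) at a Benjamini-Hochberg adjusted p below 0.05. Depot effects, and their difference, came from a fit of the 4 group means. Standard errors (SE) are of log2 changes, and CPM values are TMM-scaled. Unadjusted p-values below 0.05 in each depot set the class of a called gene. The steps were tested on simulated data.

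Gene names were chosen by a rule: Il33, Il1rl1 and Ucp1; the 15 largest rises and 15 largest falls of the both-depots class with at least 1 CPM in the higher group of each depot and no overlap in either; the 5 of smallest p of each one-depot class; and up to 3 called genes of each list by smallest p. Predicted genes were left out, and some genes the rule takes are not reported here. The text gives part of these, chosen after the values were seen. Cry1, Hlf, Csnk1e, Dbp, Tef, Ciart, Per2, Bhlhe40, Maff, Zfp36, Klf9, Klf15, Fasn, Kdr, Emcn, Nnt, the genes at the thresholds and those called by both separate fits lie outside the rule and were also chosen after their values were seen.

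The lists (32, with 627 of 634 entries matched), the comparison and the rules were chosen with earlier results of these data known. Alternatives were DESeq2 size factors, no filter, a filter at 5 CPM in 3 libraries and a Wald test in DESeq2 1.42.0. Others were quality-weighted limma-voom (limma 3.58.1), equal depot weights in the fit of the 4 group means, non-robust dispersions and a replicate block. Separate depot fits for the classes, a class limit of 0.01 and leaving out each library were also used.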

Additional observations from a re-analysis of the deposited data

Results flagged for a closer look

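The effect in inguinal tissue differed from that in brown tissue, by edgeR's test of the difference itself, for 13 of the genes the naming rule took. The differences, inguinal minus brown on the log2 scale, were -2.65 for Il33, 2.15 for Ucp1, 2.75 for Arntl, 2.17 for Npas2, 1.22 for Trib3 and 0.983 for Dlk1, a progenitor surface protein. Of these, Arntl, Npas2, Trib3, Dlk1 and Il33 had the same sign in both depots, so the direction was shared and the size was not. The others were 0.925 for Eda, 1.51 for Hsd11b1, 1.42 for Ide, 0.888 for Acadvl, 1.30 for S100b, -0.538 for Igfbp5 and -1.32 for Nfkbia.

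In 11 of 261 groups of 4 libraries, 1 library lay far from the other 3 (by Dixon's ratio of gap to range, which chance exceeds in about 1 group in 20). Among brown wild-type libraries these were library 4 for Nfil3 (49.1 CPM) and Eln (125.0 CPM), library 3 for Slc28a2 (36.2 CPM) and Azgp1 (0.0573 CPM), library 2 for Cyp51 (26.6 CPM) and Acadvl (912 CPM) and library 1 for Rab26os (2.17 CPM). In inguinal wild type they were library 2 for Ephb1 (3.66 CPM), library 4 for Atg9a (45.7 CPM) and library 3 for Iigp1 (51.4 CPM). Brown labelled knockout library 1 was the far one for Zbtb16 (172 CPM), on the wild-type side of its group. The wild-type Slc28a2 and Ephb1 values lay away from the knockout libraries, that of Nfil3 toward them.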

How the results depend on the processing

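With 1 library left out in turn, the count of called genes ran from 595 to 2610, those higher from 367 to 1498, those lower from 210 to 1112, those in both depots from 402 to 1238, in inguinal tissue alone from 25 to 627 and in brown tissue alone from 74 to 745. Genes past the limit in both depots with the same sign ran from 532 to 1243 and with opposite signs from 354 to 1084. DESeq2 called 2094 genes (1232 higher, 862 lower; 687 inguinal alone, 652 brown alone), and limma-voom 1828 (812 lower, 608 inguinal alone), with 1112 of the same sign and 1112 of opposite signs past the limit in both depots. Weighting the depots equally used the fit of the 4 group means, where a difference between depots does not add to the spread. In the model of depot plus genotype it does, so weight and spread changed together. This setting called 2165 genes (1243 higher and 922 lower, with 939 inguinal alone and 504 brown alone). Without a filter on low counts 104 genes were inguinal alone and 122 brown alone, and a depot limit of 0.01 left 219 in both depots. The cause of these differences was not tested. With the replicate number as a block, 111 genes were called (80 higher, 31 lower; 110 in both depots, 1 in inguinal and 0 in brown tissue alone), 106 of them among the 650 (16.3%). In this block fit 33 of the single genes followed here kept direction and side of the threshold. Another 69 kept direction but were no longer called, among them Npas2, Trib3, Lss and Pnpla2. Whether the numbers pair libraries was not settled. Same-numbered deviations correlated at -0.0359 to 0.141 in brown and -0.0721 to 0.0332 in inguinal tissue. In brown tissue 3 of 4 knockout libraries correlated best with their own number, but in inguinal tissue 0 of 3 did. For single genes, 2000 of the recomputed values kept direction and side of the threshold and 351 kept direction but were no longer called. The other 5 were of Ucp1, not called in any fit, whose value of 0.09 became -0.0156 with the replicate block and ran from -0.0745 to 0.291 with 1 library left out. The depth was 26059635 counts or more per library, and counting error weighs most on genes with few counts, such as Azgp1 in brown tissue, Il33 in inguinal knockout libraries (27 counts over 3 libraries) and Mpp4 there (40 counts). What share of the spread is counting error was not tested.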

Other observations

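Among genes at least 2-fold apart in both depots, 32 were higher and 17 lower, and some of them belong to no gene group described above. They were picked after their values were seen. Cbs, which starts transsulfuration, rose by 1.55 (SE 0.28, edgeR adjusted p = 0.00646), and Sdc4, a heparan sulfate proteoglycan, by 1.17 (SE 0.21, edgeR adjusted p = 0.0074). Il22ra2, a soluble decoy receptor of IL-22, rose by 2.02 (SE 0.38, edgeR adjusted p = 0.00745). Pmepa1, a target and inhibitor of TGF-beta signalling, fell by 2.1 (SE 0.45, edgeR adjusted p = 0.0184), with -2.50 in brown and -1.64 in inguinal tissue. Its brown wild-type libraries were widely spread, at 181 ± 172 CPM.

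Cyp2b10, a xenobiotic-metabolizing cytochrome P450, had a common change of 3.86 (SE 1.01, edgeR adjusted p = 0.0376). It was 6.35 ± 3.26 and 21.8 ± 19.1 CPM in brown and 0.299 ± 0.067 and 44.5 ± 7.95 CPM in inguinal tissue, and the depot effects of 1.77 and 7.21 differed (edgeR adjusted p = 0.0254). Eln, elastin, was the only one of 25 extracellular matrix genes called (4.0%, beside 6.53% of all genes), and it rose by 0.53 (SE 0.09, edgeR adjusted p = 0.00518). In splicing factors 3 of 24 were called (12.5%), all lower, with Clk1, a kinase of SR proteins, by 0.46 (SE 0.09, edgeR adjusted p = 0.0105) in both depots.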
